A study of Drosophila melanogaster with 3 samples.

Results

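Cuticle protein genes were taken as the protein-coding genes of the dm6 annotation whose symbols start with Cpr and a digit, Lcp, Ccp84A or Twdl, together with Edg78E, Edg84A, Edg91, Acp65Aa, Pcp, Acp1 and resilin. The rule, which uses symbols and no measured value, gave 124 of the 13945 protein-coding genes on the main chromosomes. They comprise 70 Cpr genes, 25 Twdl genes, 15 Lcp genes, 7 Ccp84A genes and the 7 genes named singly. By chromosome arm there were 47 on 3L, 33 on 3R, 28 on 2R, 8 on 2L and 8 on X.

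The chromatin came from whole Drosophila melanogaster prepupae of a CG6163-GFP strain, in which an insertion at CG6163 gives a CG6163-eGFP fusion protein. The fusion was precipitated with an antibody against GFP and the DNA was sequenced (ChIP-seq) in 3 biological replicates of this 1 group. The prepupae were of unknown stage and their sex was not collected, and sonication had cut the chromatin to between 200 and 800 bp. A control experiment is named in the labels and was not used here, so the share of each list that an untagged animal would give is not known.

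The insect cuticle is built from chitin fibres and from proteins that epidermal cells secrete at each moult. Most Cpr, Lcp, Ccp84A and Edg proteins carry the Rebers and Riddiford domain, which binds chitin, and the Tweedle (Twdl) proteins form a separate insect family that shapes the body. In the prepupa, pulses of the steroid hormone ecdysone and the nuclear receptors downstream of it, among them FTZ-F1, time the change from larval to pupal cuticle genes. Many of these genes stand in tandem clusters.

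Each deposited list gives positions of peaks, and the summit is the base of a peak at which the authors placed its maximum. The conservative list held 10894 peaks of the whole series. Each library also had a thresholded list, filtered by the authors on the irreproducible discovery rate (IDR, a measure of how well peak ranks repeat), and a far longer ranked list without that filter. The thresholded lists held 7449 peaks for replicate 1, 7920 for replicate 2 and 5844 for replicate 3, and the ranked lists 70608, 74274 and 85335. A gene is called bound below when a summit lies within 500 bp of any of its annotated starts. Signal is the authors' value for a peak within its own list. The design has 1 group, so no difference between samples was tested, and intervals are exact 95% intervals that cover counting error only. They treat genes as independent. Neighbours in a tandem cluster can share a summit or the lack of one, so intervals for cuticle genes may be too narrow. In whole animals, binding in few cells and weak binding in many cells cannot be told apart.

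The start of Cpr97Eb, which had the strongest conservative peak of any cuticle gene start, is shown beside that of Cpr73D, which had the smallest rank as a percent of list length in any ranked list, and beside 2 starts with no conservative peak nearby. Those are Edg84A and Edg78E, ecdysone-dependent genes that encode pupal cuticle proteins. Each run is the 250 bases before the outermost annotated start in the RefSeq dm6 sequence, on the gene's own strand. Cpr97Eb is chr3R:27091131-27091380 on the minus strand, Cpr73D is chr3L:16957690-16957939 on the minus strand, Edg84A is chr3R:6684195-6684444 on the plus strand and Edg78E is chr3L:21297804-21298053 on the minus strand. Capitals mark the words TATAAA (the TATA box), CAAGGTC (the core of the FTZ-F1 site), GAGAG (the GAGA factor core) and AGATAA (the GATA factor core) on either strand.
Cpr97Eb: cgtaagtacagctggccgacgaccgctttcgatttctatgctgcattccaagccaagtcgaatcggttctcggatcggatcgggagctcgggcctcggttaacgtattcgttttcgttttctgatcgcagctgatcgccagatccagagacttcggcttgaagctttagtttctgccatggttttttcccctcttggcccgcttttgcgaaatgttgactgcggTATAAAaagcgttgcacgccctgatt
Cpr73D: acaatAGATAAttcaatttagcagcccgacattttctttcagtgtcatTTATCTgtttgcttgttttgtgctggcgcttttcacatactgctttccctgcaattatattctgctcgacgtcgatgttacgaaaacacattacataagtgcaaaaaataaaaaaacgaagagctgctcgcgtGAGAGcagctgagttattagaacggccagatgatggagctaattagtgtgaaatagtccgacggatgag
Edg84A: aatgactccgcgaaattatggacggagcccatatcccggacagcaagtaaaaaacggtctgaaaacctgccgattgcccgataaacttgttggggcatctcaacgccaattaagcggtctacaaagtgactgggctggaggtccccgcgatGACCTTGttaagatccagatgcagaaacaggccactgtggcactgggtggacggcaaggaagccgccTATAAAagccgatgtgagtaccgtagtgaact
Edg78E: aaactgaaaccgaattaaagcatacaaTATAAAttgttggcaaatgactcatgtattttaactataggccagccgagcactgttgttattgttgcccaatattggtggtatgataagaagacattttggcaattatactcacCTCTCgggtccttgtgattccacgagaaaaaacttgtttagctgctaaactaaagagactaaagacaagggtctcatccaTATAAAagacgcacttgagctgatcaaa

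Cpr97Eb, Edg84A and Edg78E have a TATA box word beginning at -26, -32 and -28 on the gene's own strand, counted back from the start, and Edg78E holds another at -223. Cpr73D has none in these bases and carries GATA words at -245 and -202 and a GAGA word at -69. The FTZ-F1 word of Edg84A, a gene known to be switched on through FTZ-F1 in prepupae, begins at -99 and is read on the opposite strand.

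Few cuticle gene starts were bound. Of the 124 genes, 5 had a conservative summit within 500 bp (4.03%, interval 1.32 to 9.16%), against 24.2% of all protein-coding genes. The 5 were Cpr97Eb, Cpr73D, Cpr51A, Cpr50Ca and Cpr47Ed, all of the Cpr family. No Lcp, Ccp84A, Twdl or singly named gene was among them. None of the 5 peaks overlapped a thresholded peak in all 3 libraries, whereas 12.1% of all protein-coding genes had such a peak. For the cuticle genes, 0 of 124 allows a share of up to 2.93%. With the peaks found in both remaining libraries, 0, 0 and 2 cuticle genes were bound without replicates 1, 2 and 3, against 13.4%, 12.9% and 15.1% of all genes. Cuticle genes are short, with a median length of 966.5 bp against 2166 bp for all protein-coding genes, and 90.3% had a single annotated start, against 73.5%. Among genes with 1 start the shares were 4 of 112 cuticle genes (3.57%) and 17% of all such genes.

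In the thresholded lists, summits lay at 3 cuticle genes in replicate 1 (2.42%), 2 in replicate 2 (1.61%) and 0 in replicate 3. All protein-coding genes gave 18.9% in replicate 1, 19.7% in replicate 2 and 17.3% in replicate 3. The means were 1.34% ± 1.23 for cuticle genes and 18.6% ± 1.22 for all genes (SD, n = 3 libraries). In each library the cuticle genes thus stood below all genes by more than the spread between libraries. The ranked lists gave 48 cuticle genes in replicate 1 (38.7%), 62 in replicate 2 (50%) and 69 in replicate 3 (55.6%). For all protein-coding genes the same shares were 57.1%, 56% and 62.8%, in the order of the replicates. The means were 48.1% ± 8.62 and 58.6% ± 3.66 for cuticle genes and all genes (SD, n = 3 libraries), and the gaps in replicates 2 and 3 were smaller than the spread of the cuticle genes. A ranked summit was found in all 3 libraries at 34 cuticle genes (27.4%), against 41.5% of all genes, and in none of the libraries at 40 (32.3%), against 24.3%.

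**Figure D1:**
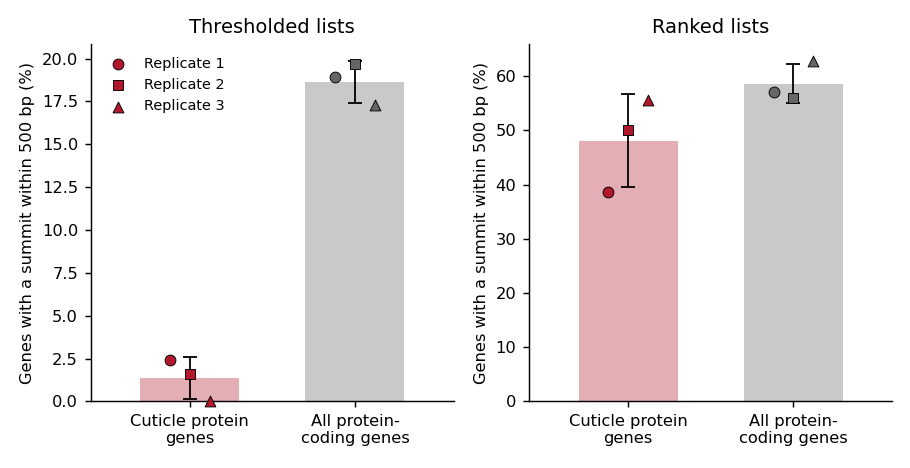
Share of genes with a summit within 500 bp of a start (%) in the thresholded lists (left panel) and the ranked lists (right panel), for cuticle protein genes and for all protein-coding genes. Points are the 3 libraries, bars their mean and error bars the SD. The cuticle gene points sit between 0 and 2.42% in the thresholded lists, where all genes sit between 17.3% and 19.7%. In the ranked lists the cuticle gene points sit between 38.7% and 55.6% and the points of all genes between 56% and 62.8%.

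The bound members differed in how far their peaks repeated. Cpr97Eb had a summit 134 bp upstream of its start with a signal of 136.6, close to the median of 140 in the conservative list. The overlapping ranked peaks of Cpr97Eb had signals of 56.8 in replicate 1, 49.65 in replicate 2 and 22.17 in replicate 3. Replicates 1 and 2 passed the authors' threshold there and replicate 3 did not. With a q-value of 0.00813, Cpr97Eb was the 1 bound member below 0.05, a level that 33.7% of the conservative peaks exceeded.

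Cpr73D had a summit 290 bp upstream of its start, inside an intron of Ogdh, the gene of a subunit of oxoglutarate dehydrogenase. Its signal was 102.8 and its q-value 0.0715. The ranked signals were 38.87, 60.86 and 33.18 in replicates 1, 2 and 3, and again replicates 1 and 2 passed the threshold. The gene spans several further summits. One lay 1551 bp into the gene from its inner start with a signal of 136.8 in an intron, and overlapped a thresholded peak in all 3 libraries. The sequence around the bound summit of Cpr73D, chr3L:16957929-16958029 on the plus strand, opens with a GATA word, in capitals. It is the same word as that at -245 before the start, here read on the other strand, and lies at the edge of the window.
Cpr73D summit: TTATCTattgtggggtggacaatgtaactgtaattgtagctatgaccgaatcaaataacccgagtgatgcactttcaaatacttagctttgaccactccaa

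Cpr51A had the nearest summit of all members, 42 bp upstream of its start with a signal of 90.33, and it passed the threshold in replicate 1 alone. Its ranked signals were 38.87, 32.15 and 23 in replicates 1, 2 and 3. Cpr50Ca had a summit 240 bp upstream with a signal of 77.68, which met the threshold in 0 libraries. Its ranked signals were 31.19, 31.31 and 30.34 in replicates 1, 2 and 3. Cpr47Ed owed its place to a summit in its coding exon 394 bp downstream of the start with a signal of 4.334 and a q-value of 0.896. That peak overlaps a stronger one of the same list, with a signal of 79.32, whose summit lies 617 bp from the start in the 3' UTR. With 1 peak kept per merged region, an alternative chosen after the data were seen, 4 cuticle genes were bound. None of the summits within 500 bp of the 5 genes lay within 500 bp of the start of any other gene.

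The weaker peaks of the ranked lists did not single out another set of strong starts. The strongest ranked peak of a cuticle gene start had a signal of 56.8 in replicate 1, 60.86 in replicate 2 and 37.38 in replicate 3. The medians of the thresholded lists were 66.37, 69.31 and 64.19. The median over the cuticle genes that had a ranked summit was 15.97, 16.76 and 16.11 in replicates 1, 2 and 3, against 27.39, 30.53 and 23.35 over all genes that had one. Those cuticle gene summits lay within 200 bp of the start in smaller shares. The shares were 43.8%, 46.8% and 47.8%, against 60.9%, 60.3% and 57% for all genes.

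The 12 members with the smallest rank percent in any library (rank divided by the length of that library's list) were Cpr73D, Cpr97Eb, TwdlV, Lcp9, Cpr50Ca, Cpr92F, Lcp3, Cpr51A, Cpr92A, TwdlW, TwdlT and Cpr31A. The best of them was Cpr73D in replicate 2, at 6.63%, and the last was Cpr31A in replicate 3, at 13.4%. TwdlV owed its place to replicate 3, where its signal was 37.38, while replicate 2 gave 15.84 and replicate 1 had no ranked summit there. Lcp9, a larval cuticle gene outside the clusters, had signals of 13.6, 41.76 and 32.95 in replicates 1, 2 and 3. Lcp3, Cpr92A and TwdlW appeared in replicate 3 alone, with signals of 30.16, 29.08 and 27.26. Cpr92F had 20.8, 30.26 and 30.21, TwdlT had 23.33, 11.93 and 27.16, and Cpr31A had 17.47, 19.86 and 27.11 in replicates 1, 2 and 3. Replicate 3 had the longest ranked list, and of these 12 genes only Cpr73D, Cpr97Eb, Cpr50Ca and Cpr51A were bound in the conservative list.

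**Figure D2:**
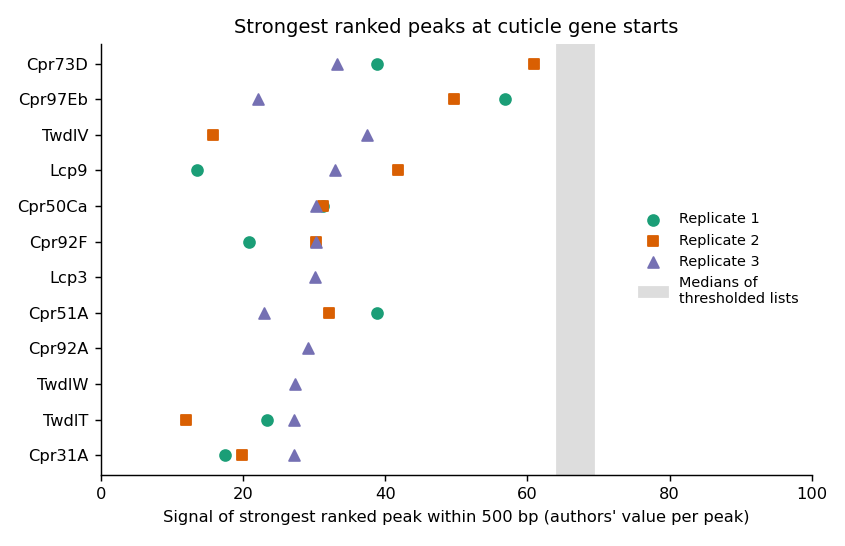
Signal of the strongest ranked peak within 500 bp of a start (authors' value per peak) for the 12 cuticle genes with the smallest rank percent in any library, with a symbol for each replicate. The grey band spans the medians of the 3 thresholded lists, 64.19 to 69.31, and every point lies to its left, with Cpr73D in replicate 2 nearest at 60.86.

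Distance to the nearest conservative summit, which needs no window, gave the same order. The median was 9311 bp for cuticle genes, against 4642 bp for all protein-coding genes. With the conservative peaks found in both remaining libraries, it was 15486, 16169 and 14854 bp without replicates 1, 2 and 3, against 10100, 10468 and 8503 bp for all genes, a smaller ratio each time. It was 5455.5 bp for Cpr genes, 18539 bp for Lcp genes, 22449 bp for Twdl genes, 66838 bp for Ccp84A genes and 6615 bp for the singly named genes. The members nearest to a summit in their families were Cpr51A at 42 bp, Lcp65Aa at 4026 bp, TwdlE at 4734 bp and Ccp84Aa at 55486 bp. The farthest were Cpr92F at 34823 bp, Lcp1 at 31360 bp, TwdlD at 71475 bp and Ccp84Ag at 72842 bp. Edg84A was the farthest of all members, at 75125 bp. A summit lay more than 50 kb away for 20 cuticle genes (16.1%), against 5.84% of all genes. These 20 were the whole Edg84A to Ccp84Aa cluster of 8 genes and the whole TwdlM to TwdlD cluster of 12, so their distances are not independent of one another.

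**Figure D3:**
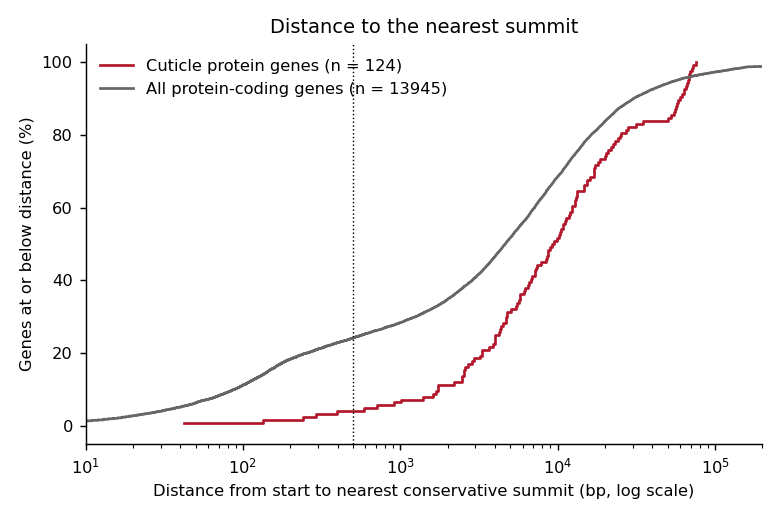
Cumulative share of genes (%) by distance from the nearest start to the nearest conservative summit (bp, log scale), for the 124 cuticle protein genes and all 13945 protein-coding genes. The dotted line marks 500 bp, where the curves stand at 4.03% and 24.2%. The last step of the cuticle gene curve holds the 20 genes more than 50 kb from a summit.

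A further 9 cuticle genes had their nearest summit between 501 and 2000 bp, which brought the number within 2 kb to 14 (11.3%), against 34.8% of all genes. Within 2 kb, 8 of these 14 members had a summit at which all 3 libraries passed the threshold. The share of all genes with such a summit is not given here, so the 8 cannot be read as many or few. Of the 24 different summits within 2 kb, 9 did so (37.5%), a share near the 40.3% of all conservative peaks. Cpr62Ba had summits on both sides of a start inside its own introns. The upstream one, 795 bp away, had a signal of 296.7 and a thresholded peak in all 3 libraries, and the downstream one, 712 bp away, had a signal of 135.1. Cpr76Ba, the first gene of its cluster, had a summit with a signal of 303 past the end of the gene, 1612 bp from its start, with thresholded peaks in all 3 libraries. Cpr72Ea had a summit with a signal of 245.1 at 1213 bp upstream, also in all 3 libraries, and a weak shoulder of it at 1013 bp with a signal of 7.984. Cpr97Ea, the neighbour of Cpr97Eb, had a summit with a signal of 236.1 in its intron 1728 bp from its start. Upstream of Cpr97Eb, at -1277 bp from its start, a summit had a signal of 237.3 and lay 736 bp from the start of CG14258. Some of the summits within 2 kb belonged to the starts of other genes. Of the 24, 4 lay within 500 bp of a start of Ogdh, CG30197, the formin gene form3 or Vkor.

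Of the singly named genes, which encode pupal and adult cuticle proteins and an elastic protein, 0 of 7 were bound. Resilin, the rubber-like protein of elastic cuticle, had its nearest summit 1732 bp upstream with a signal of 204.6, at 192 bp from the start of Vkor. Pcp, a pupal cuticle gene nested in an intron of the purine synthesis gene Gart, had one 2468 bp away with a signal of 248.2, at 252 bp from a start of Gart. Acp65Aa, an adult cuticle gene, had one 2585 bp upstream with a signal of 266.3, at 127 bp from the start of lncRNA:CR45421. For Edg91, which encodes a glycine-rich cuticle protein, the nearest summit was 6615 bp away with a signal of 110.2. Edg78E had its nearest one 6772 bp away with a signal of 1894.4, and Acp1 its nearest 13179 bp away with a signal of 122.6. At their own starts, the ranked lists gave weak peaks. Edg78E had signals of 10.55, 16.33 and 14.92, Edg91 had 12.81, 14.49 and 17.91, and Acp65Aa had 21.24, 14.72 and 9.108 in replicates 1, 2 and 3. Edg84A had a ranked summit in replicate 3 alone, with a signal of 15.39, and Acp1 had none in any library. Pcp had 13.3 in replicate 1 and 19.31 in replicate 3, and resilin had 15.33, 21.72 and 10.47 in replicates 1, 2 and 3.

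The genes lay in 10 clusters, defined as at least 4 members with gaps of at most 20 kb between neighbouring members. The clusters held 73 of the 124 genes in 199123 bp. Inside them the conservative list had 8 summits, or 4.02 per 100 kb (interval 1.73 to 7.92). The 20 kb on each side of the clusters held 22 summits, or 5.5 per 100 kb (interval 3.45 to 8.33), and the main chromosomes together 8.14 per 100 kb. With the peaks found in both remaining libraries, the density inside was 1 per 100 kb without any 1 replicate, against 3.63, 3.51 and 4.42 on the main chromosomes without replicates 1, 2 and 3. Thresholded summits inside the clusters stood at 1, 2.01 and 1.51 per 100 kb in replicates 1, 2 and 3, a mean of 1.51 ± 0.505, against 5.28 ± 0.813 on the main chromosomes (SD, n = 3 libraries). They were only 2, 4 and 3 summits, with intervals of 0.122 to 3.63, 0.547 to 5.14 and 0.311 to 4.4 per 100 kb. The main chromosomes gave 5.56, 5.91 and 4.36 in replicates 1, 2 and 3, and the last value lies inside its interval. Pooled over the clusters, ranked summits stood at 38.2, 57.3 and 74.8 per 100 kb in replicates 1, 2 and 3. The intervals were 30.1 to 47.8, 47.2 to 68.8 and 63.3 to 87.9, and the main chromosomes gave 52.6, 55.3 and 63.5. The means were 56.8 ± 18.3 inside, 56.1 ± 13.2 in the flanks and 57.1 ± 5.68 on the main chromosomes (SD, n = 3 libraries). The clusters starting with Lcp1, Lcp65Ag3, Edg84A, TwdlM and TwdlX lay below the main chromosomes in every library. Those starting with Cpr47Ea, Cpr64Aa, Cpr76Ba and Cpr78Ca lay above in every library, and that of Cpr49Aa lay below in replicate 1 alone. A density below that of the main chromosomes was thus seen in the conservative and thresholded lists, though within counting error in thresholded replicate 3. For the ranked lists the pooled means differed by less than the spread between libraries, while single clusters lay on either side.

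Of the 73 genes in clusters 1 was bound (1.37%, interval 0.0347 to 7.4%), and that was Cpr47Ed with its weak peak. Of the 51 others, which include groups too small to count as clusters, 4 were bound (7.84%, interval 2.18 to 18.9%), and the intervals overlap. The median distance to a summit was 11775 bp for the genes in clusters and 5750 bp for the others. A ranked summit lay at 27.4%, 43.8% and 49.3% of the genes in clusters in replicates 1, 2 and 3, against 54.9%, 58.8% and 64.7% of the others.

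The 8 summits inside clusters lay in 3 of them. In the cluster from Cpr47Ea to Cpr47Eg there were 4. The strongest, 911 bp downstream of the start of Cpr47Ec and outside any gene, had a signal of 197.1 and thresholded peaks in all 3 libraries. The other summits of that cluster lay around Cpr47Ed with signals of 79.32, 4.334 and 80.19, and 0 libraries passed the threshold there. In the cluster from Cpr49Aa to Cpr49Ah, summits upstream of Cpr49Ae had signals of 95.33 and 8.566 in overlapping peaks, and one nearest to CG8501 had a signal of 52.75. None of these 3 overlapped a thresholded peak of any library.

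The third was the 65A cluster from Lcp65Ag3 to Cpr65Az, the largest, with 18 larval and adult cuticle genes. It held a single summit, the one 127 bp from lncRNA:CR45421 and nearest, among cuticle genes, to Acp65Aa. Its overlapping ranked peak had a signal of 115.7 in replicate 1, the highest of any ranked peak inside the clusters in that library. The sequence around this summit, chr3L:6155280-6155380 on the plus strand, holds none of the searched words and a long run of T.
Acp65Aa summit: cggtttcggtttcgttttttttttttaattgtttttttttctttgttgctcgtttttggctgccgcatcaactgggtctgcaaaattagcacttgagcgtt

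The other 7 clusters held no conservative summit. The region around Edg84A to Ccp84Aa was the emptiest, with 8 genes, no summit in either flank, and the nearest summits 202464 bp away at CG15186 on one side and 54667 bp away at bcd, the gene of the Bicoid morphogen, on the other. For TwdlM to TwdlD, with 12 Tweedle genes, the nearest summits were 50568 bp away at the polarity gene scrib and 73331 bp away at amon, which encodes a prohormone convertase. The summit at amon had a signal of 1028.1. The one at scrib, from which the distances of all 12 genes were taken, had 75.67 with a q-value of 0.274. It passed the threshold in 0 libraries. So did the summit at CG15186, with a signal of 104.6, while that at bcd had 226.6 and passed in all 3. For Lcp1 to Lcp4, the nearest were 72017 bp away at CG11635 and 24108 bp away at the maltase gene Mal-A5, the last with a signal of 1044.8. The ranked lists differed more between these regions. TwdlX to Twdlalpha had 0, 0 and 1 ranked summits and Lcp1 to Lcp4 had 0, 0 and 3 in replicates 1, 2 and 3. Edg84A to Ccp84Aa had 2, 7 and 8, and TwdlM to TwdlD had 5, 9 and 11.

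The flanks of the other clusters held between 0 and 7 summits. Cpr64Aa to Cpr64Ad had 7, all on the side of ImpL2, which encodes a secreted insulin-binding protein. The strongest of them, both in introns of ImpL2, had signals of 1691.3 and 332.1, the next had 155.8, and the rest had signals between 21.68 and 83.66, below the list's median of 140. The cluster from Cpr78Ca to Cpr78Cc had the summit with a signal of 1894.4 at 3404 bp from its edge, in an intron of CG11309 and within 500 bp of the starts of CG11309 and CG7632. On its other side a summit with a signal of 831.1 lay 37959 bp away in an intron of Eip78C, an ecdysone-induced nuclear receptor gene. Cpr76Ba to Cpr76Bd had 5 flanking summits, the nearest 832 bp from its edge beside Cpr76Ba, and on the other side 14090 bp away at CG9300. TwdlX to Twdlalpha on X had 7, the nearest 7298 bp away near CG34325 and 6897 bp away near goe. The flank of Cpr47Ea to Cpr47Eg held 2, the nearest at Fbl6 with a signal of 686.6, and on its other side the nearest summit lay 29004 bp away at CG7737. The flanks of Cpr49Aa to Cpr49Ah and of the 65A cluster held none. Their nearest summits lay at CG8490 and DUBAI, and at CG10467 and CG43293.

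**Figure D4:**
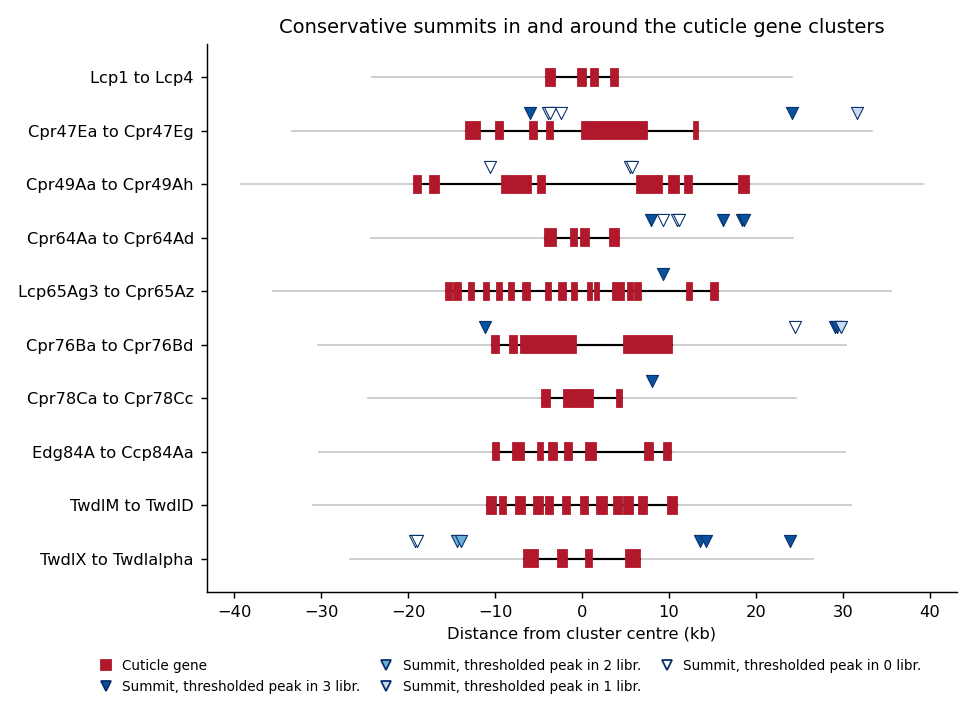
Map of the 10 clusters, each drawn to scale around its own centre (kb), with cuticle genes as red boxes, the 20 kb flanks as grey lines and conservative summits as triangles shaded by the number of libraries with an overlapping thresholded peak. The 8 triangles above the black spans and the 22 above the longer flanks make 4.02 and 5.5 per 100 kb, with overlapping intervals, and the Lcp1, Edg84A and TwdlM clusters show none in either.

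Cuticle gene promoters had a marked sequence make-up. In the window from 250 bases before to 50 after the outermost start, TATAAA occurred on either strand in 93 of the 124 cuticle genes (75%, interval 66.4 to 82.3%), against 45.8% of all protein-coding genes. With the first base held between -40 and -20 on the gene's own strand, where a working TATA box lies, it occurred in 71 cuticle genes (57.3%), against 7.79% of all genes. Of the cuticle genes with this placed word 3 of 71 were bound (4.23%, interval 0.88 to 11.9%), and of those without it 2 of 53 (3.77%). Among other protein-coding genes 10.5% of the 1016 with the placed word were bound (interval 8.71 to 12.6%), against 25.5% of the 12805 without it. In the ranked lists the cuticle genes with the placed word had a summit in 39.4%, 47.9% and 53.5% of cases in replicates 1, 2 and 3. Those without it had one in 37.7%, 52.8% and 58.5%. Among the other genes the shares were 38.4%, 42.2% and 47.9% with the word and 58.8%, 57.2% and 64.1% without it. Whether the placed TATA box accounts for the low share of cuticle genes was not tested.

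**Figure D5:**
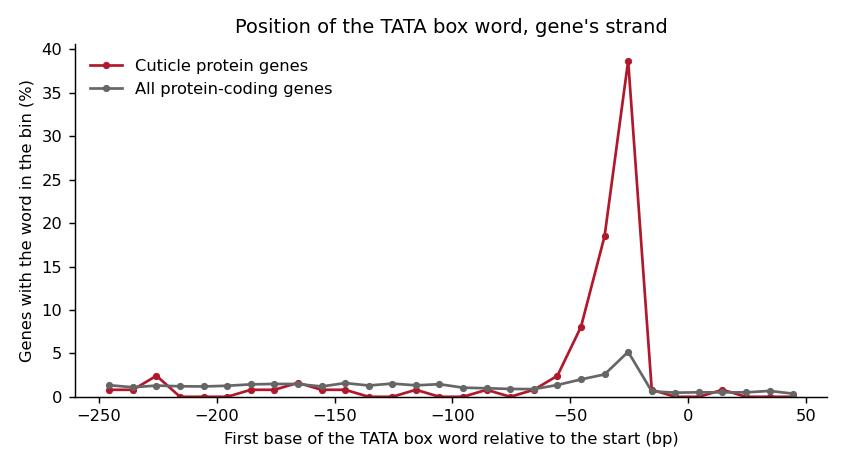
Share of genes (%) whose promoter holds the TATA box word on the gene's own strand, in bins of 10 bases by the position of its first base relative to the start (bp), for cuticle protein genes and all protein-coding genes. The cuticle gene curve peaks at 38.7% in the bin from -30 to -21, where all genes stand at 5.18%.

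The FTZ-F1 core CAAGGTC was present in 3 cuticle promoters (2.42%), against 1.39% of all. They were those of Edg84A, TwdlD and Cpr47Ec, with the first base at -99, -122 and -110. None of these genes was bound, but 3 genes are too few to set against the 4.03% of all cuticle genes. GAGAG was present in 30.6% of cuticle promoters, against 29.7% of all, and AGATAA in 8.87%, against 18.7%. The DNA replication-related element TATCGATA, a core promoter word of many housekeeping genes, was present in 1 cuticle promoter (0.806%), that of Cpr49Af, against 9.36% of all. Of all genes with that element 29% were bound, against 23.7% of those without it. All words were searched on both strands, and their absence says only that these letters are not in the window. The median share of A and T was 55.8% in cuticle promoters, against 62% in all.

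Other genes of the cuticle had shares nearer to that of all genes. Of 21 genes of chitin synthesis and modification 6 were bound (28.6%), against the 24.2% of all genes. They included Cht7, a chitinase, with a signal of 263, and mmy and nst, enzymes of the pathway to UDP-N-acetylglucosamine, with 224.9 and 218.1. The chitin deacetylase genes Cda4 and Cda5 were not bound. Of 9 annotated tanning and pigment genes 3 were bound (33.3%), namely Pu, needed for pteridine synthesis, with a signal of 330, t with 96.02 and speck with 71.12. The black gene b and Ddc, the dopa decarboxylase gene, were not. Of 11 annotated genes of zona pellucida proteins of the apical matrix 4 were bound (36.4%), with qsm, tyn and pio leading at 297.1, 145.7 and 115.5, while cyr and dy were not. The intervals of these 3 lists all include 24.2%. Fewer of their bound genes had a peak in all 3 libraries, as 12.1% of all genes had. These were 5 of the 6 chitin genes, 1 of the 3 tanning and pigment genes and 1 of the 4 zona pellucida genes. The peaks of t, speck and neo, a zona pellucida gene, passed the threshold in 0 libraries.

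The regulators of cuticle genes, a list chosen with earlier results of these data known, had a larger share. Of 14 listed genes 13 were bound (92.9%, interval 66.1 to 99.8%), against 24.2% of all genes. Because known results could have steered the choice, neither this share nor its interval can stand as a test against all genes. Of the 13 bound genes, 6 had a peak in all 3 libraries, where 12.1% of all genes had one. By contrast, usp and Hr4 passed the threshold in 1 library, and Hr38 and Blimp-1 in 0. The strongest were the ecdysone-response nuclear receptor genes Hr3, Eip75B and EcR, with signals of 421.5, 409.7 and 370, and Hr39 was the 1 unbound member. These genes have a median of 3 annotated starts, where cuticle genes have 1, and a gene with more starts has more bases near a start.

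Some cuticle genes have near-identical copies, at which reads cannot be placed uniquely. Fewer than 90% of the 32-base words within 500 bp of the start were unique in the genome for 16 cuticle genes (12.9%), against 4.17% of all genes. The lowest values were those of Lcp65Ab1 and Lcp65Ab2, at 9.9% each. Of the 16, 0 were bound, and of the 582 such genes among all protein-coding genes 26 were bound. Among the cuticle genes with unique starts 4.63% were bound, where all cuticle genes gave 4.03%. Of all genes with unique starts 25% were bound. Whether repeated sequence accounts for any of the low share of cuticle genes was not tested. Over its whole length the 65A cluster was 83.2% unique, the lowest of the clusters, and the clusters from TwdlM to TwdlD and from Edg84A to Ccp84Aa were 92.6% and 93.5% unique.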

How the data were processed

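The deposited files are peak lists on dm6, in ENCODE's narrowPeak columns, of 3 ChIP-seq libraries. Which aligner or peak caller made them is not given in the sources used here. Read numbers per library were not used, so depth is given as peak numbers. The deposited signal is the authors' value per peak of 1 list, and signals of different libraries were not compared as levels. The score deposited by the authors rises as the IDR falls and began at 830 in the conservative list. The −log10 q-value and −log10 IDR deposited by the authors served as filters. Genes came from Ensembl release 115 without transposable elements and sequence from RefSeq. Of the peak ends, 0 lay beyond a chromosome. Promoter sequence was read from that genome, since a planned promoter table was not used.

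Shares, distances, intervals, motif counts and unique 32-base words were computed with SciPy 1.17.1, pandas 2.3.3 and NumPy 2.4.6 in Python 3.11.15, figures were drawn with matplotlib 3.10.9, and the assignment of summits to starts was tested on simulated data. The members and lists were chosen with earlier results of these data known. Genes are named by a rule: bound members, the singly named genes, the 12 smallest rank percents, the nearest and farthest of each family, the ends, summits and neighbours of each cluster, and up to 3 bound and 2 unbound genes of the other lists. Summits from 501 to 2000 bp, the placed TATA box and the members with word matches or repeated starts were picked out after the values were seen. AANAT1 and dp matched no annotated symbol.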

Additional observations from a re-analysis of the deposited data

How the results depend on the processing

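The 5 bound members became 2 at a window of 200 bp, 8 at 1000 bp, 2 with the series list of 8933 peaks, 2 with an IDR below 0.001 and 1 with a q-value limit of 0.05. They became 3, 2 and 0 with the thresholded lists of libraries 1, 2 and 3, 0 with peaks found in all 3 libraries, and 0 to 2 with peaks of both remaining libraries when each replicate was left out. All genes gave 18.4% at 200 bp and 28.4% at 1000 bp. They gave 21.2% with the list of 8933, 16.9% at the IDR limit and 19.1% at the q-value limit. The mean share at ranked summits, 48.1%, became 30.4% at 200 bp (all genes 42.6%) and 60.5% at 1000 bp (all genes 69.8%). It became 11.8% with the strongest 20000 ranked peaks (all genes 35.5%) and 3.23% with the strongest 10000 (all genes 24.6%). Without 1 replicate it ranged from 44.4% to 52.8% (all genes 56.6% to 60%). Summits inside clusters, 4.02 per 100 kb, became 1 with the list of 8933, with library 1, at the IDR limit, at the q-value limit and without each replicate. They became 1.51 with the list of 9110 and with library 3. The main chromosomes gave 6.67 with the list of 8933, 6.8 with that of 9110, 5.03 at the IDR limit and 5.4 at the q-value limit. Their values were 5.56 with library 1, 4.36 with library 3 and 3.51 to 4.42 without 1 replicate. Flank summits, 5.5 per 100 kb, became 3.25 with library 3 and at the q-value limit, and 3 to 3.5 without 1 replicate. The median distance, 9311 bp, became 8782.5 bp with the list of 12445 peaks, 10662.5 bp with that of 8933 and 10984 bp with that of 9110. It was 11933, 11187 and 11924.5 bp with libraries 1, 2 and 3, 13385.5 bp at the IDR limit, 12096.5 bp at the q-value limit and 14854 to 16169 bp without 1 replicate (all genes 8503 to 10468 bp). For all genes the median was 3934, 5497 and 5320 bp with the lists of 12445, 8933 and 9110 peaks. It was 6541, 6270 and 7434 bp with libraries 1, 2 and 3, 7458 bp at the IDR limit and 6443 bp at the q-value limit. Lists with fewer peaks give fewer summits by construction. The cause of the rest was not tested. In each of these settings the cuticle genes had the smaller share or density and the longer distance than all genes or the genome. No paired analysis was possible because the series has 1 group. Keeping 1 peak per merged region (4 bound) and keeping only members with unique starts (5 bound) were chosen after the data were seen. With so few bound members, shares that differ by a few percentage points cannot be separated.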
